A study of Mus musculus with 63 samples.

Results

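Intestinal epithelial cells (IECs) taken from the small intestine of mice with both Mediator kinase genes targeted were compared with IECs of control mice, as whole transcriptomes. The 6 libraries were chosen by their labels and columns, out of 63 samples in the series. The 3 DKO libraries come from CDK8iIEC-KO/Cdk19-/- mice, which carry VillinCreERT2, floxed Cdk8 alleles and a germline loss of Cdk19. The 3 control libraries, titled WT in the labels, come from VillinCreERT2 mice, which carry the same Cre without floxed Cdk8 and with Cdk19 intact. All 6 are of strain C57BL/6 by their labels, and all mice received tamoxifen at 80 mg/kg once daily for 5 days, with cells collected 14 days after the last dose. VillinCreERT2 is an inducible recombinase driven in the intestinal epithelium, so Cdk8 was targeted only there and only after tamoxifen, whereas the Cdk19-/- genotype is germline and so holds in every tissue. The comparison therefore holds both losses together. Animal age is not given in the sources used here, and the labels call the libraries replicates without saying that each is a separate mouse, so p-values measure the spread between these libraries.

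CDK8 and CDK19 are paralogous kinases that bind the Mediator complex, the bridge between transcription factors and RNA polymerase II, through a module with cyclin C, MED12 and MED13. The small intestinal epithelium renews itself from stem cells at the crypt base, and their daughters become absorptive enterocytes or secretory cells. The secretory branch depends on the transcription factor ATOH1 and gives Paneth cells, which release antimicrobial peptides, goblet cells, which release mucus, and hormone-producing enteroendocrine cells, while chemosensory tuft cells need POU2F3.

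Of 54752 genes in the table, 15182 passed the filter on low counts and were tested, and 466 of these lay on chromosome X or Y and were set aside. The other 14716 comprised 12987 genes that reached 1 CPM (a gene's count as a share of its library, in the standard unit) in at least 1 of 15 organoid libraries and 1729 that stayed under 1 CPM in every organoid library. The first class is called expressed in organoids here. By their labels, the 15 organoid libraries come from the DKO, VillinCreERT2, Cdk8KO, Cdk19KO and C57BL/6 lines. All were collected 7 days after 4-OHT, the active form of tamoxifen. Below, a gene's values are given in the order of replicates 1 to 3, with the VillinCreERT2 IECs as controls. A gene was called changed when its adjusted p from edgeR was under 0.05 and its fold change exceeded 1.5, the cutoffs of the study.

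The libraries held 18171558 to 19760132 counts. Xist was at 113 CPM or more in 5 libraries and at 1.11 CPM in DKO replicate 2, which held Ddx3y at 30.2 CPM, so the DKO group mixes the sexes and the control group does not. Counts per whole gene do not check the genotype: Cdk8 stood at 49.8, 49.1 and 52.5 CPM in DKO IECs against 52.8, 45.7 and 46.5 CPM in controls, and Cdk19 at 15.1, 19.0 and 15.7 CPM in DKO IECs against 17.5, 19.1 and 21.0 CPM in controls. VillinCreERT2 replicate 2 stood apart from the other controls. Across tested genes its log2 CPM correlated at r = 0.977 with DKO replicate 2 and at 0.978 with DKO replicate 3, against 0.948 and 0.967 with VillinCreERT2 replicates 1 and 3. Genes are not independent replicates, so these values are a description.

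The labelled cell type was borne out by its markers, and RNA of other cells was present in unequal amounts. The 11 epithelial markers, such as Krt8, Vil1 and Krt20, summed to 11137 to 12394 CPM in DKO and 12932 to 13400.2 CPM in control IECs. Markers of macrophages and dendritic cells summed to 408 to 1246 CPM in DKO and 19.0 to 594 CPM in control IECs, and those of mesenchyme and muscle to 469 to 989 CPM in DKO and 14.2 to 899 CPM in control IECs. Col1a1, a fibrillar collagen of fibroblasts, was at 145, 120.0 and 96.7 CPM in DKO IECs against 0.713, 196 and 7.54 CPM in controls. VillinCreERT2 replicates 1 and 3 thus held little stromal RNA, whereas VillinCreERT2 replicate 2 lay within the range of the DKO libraries for both sums and above it for Col1a1. B cell and plasma cell markers summed to 1014 to 1553 CPM in DKO and 41.1 to 395 CPM in control IECs, and T cell and intraepithelial lymphocyte markers to 647 to 1211 CPM in DKO and 271 to 616 CPM in control IECs. Endothelial markers summed to 16.8 to 27.8 CPM in DKO and 5.87 to 10.3 CPM in control IECs, mast cell and granulocyte markers to 35.7 to 71.0 CPM in DKO and 19.3 to 31.5 CPM in control IECs, pancreatic acinar markers to 15.5 to 108 CPM in DKO and 4.55 to 12.7 CPM in control IECs, and erythroid markers to 26.8 to 138 CPM in DKO and 4.55 to 49.4 CPM in control IECs. Of the neuron and glia markers, only S100b was tested, at 1.13, 0.655 and 1.52 CPM in DKO IECs against 0.165, 0.217 and 0 CPM in controls. At 0 in all 6 libraries was 1 acinar marker, Amy2a1. The part of these cells in each result below was not tested beyond the alternatives given.

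**Figure D1:**
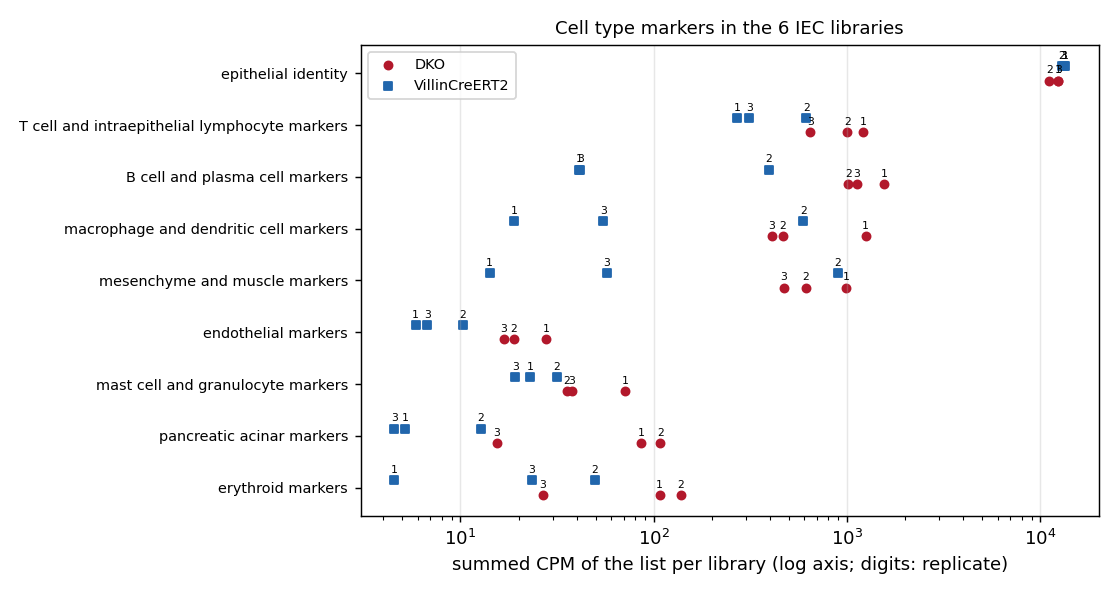
Summed CPM of each marker list (log axis) in every IEC library, with DKO as circles and VillinCreERT2 as squares and the replicate number above each point. The epithelial sums lie close together, while VillinCreERT2 replicates 1 and 3 lie below VillinCreERT2 replicate 2 and the DKO libraries for macrophage and mesenchyme markers.

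In all, 223 of the 14716 genes outside X and Y were called, 95 higher in DKO IECs and 128 lower, which is 1.52% of those tested, with 0.646% higher and 0.870% lower. A further 5 called genes lay on X or Y. Among genes expressed in organoids, 181 were called (1.39%), of which 58 were higher (0.447%) and 123 lower (0.947%). Among genes under 1 CPM in every organoid library, 42 were called (2.43%), of which 37 were higher (2.14%) and 5 lower (0.289%). With all 6 libraries, more called genes of the first class were lower than higher in DKO IECs, and more of the second were higher than lower. For the first class this turned without VillinCreERT2 replicate 2, to 395 higher and 223 lower, and with the replicate number as a block, to 6 higher and 2 lower. Over both classes, the larger number of lower calls also turned under alternatives that called many more genes of the second class. DESeq2 called 256 higher and 331 lower in the first class and 236 higher and 21 lower in the second. Without the filter on low counts the numbers were 261 and 399 in the first class and 376 and 42 in the second, and limma-voom with sample quality weights gave 169 and 260, then 148 and 9. The libraries of DKO and control IECs did not overlap for 26.8% of all tested genes, called or not.

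These counts rest on single libraries. The 181 calls came to 35 without DKO replicate 1, 501 without DKO replicate 2, 26 without DKO replicate 3, 4 without VillinCreERT2 replicate 1, 618 without VillinCreERT2 replicate 2 and 3 without VillinCreERT2 replicate 3. Each of the 223 calls kept its sign in every one of these 6 fits. Of 59 called genes that the naming rule picked, 58 were called again without VillinCreERT2 replicate 2, 56 without DKO replicate 2, 15 without DKO replicate 1, 13 without DKO replicate 3, 5 without VillinCreERT2 replicate 1 and 3 without VillinCreERT2 replicate 3. When DKO replicate 2 and VillinCreERT2 replicate 2 were both left out, an alternative chosen after seeing the data, 748 genes expressed in organoids were called, 296 higher and 452 lower, and 203 of the 223 calls were among all those made. With the level of macrophage and mesenchyme markers as a covariate, also chosen after seeing the data, 14 of the 59 were called again. With the replicate number as a block, 6 were.

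Paneth cell effectors were lower in DKO IECs as a group. Of 21 listed genes 19 were tested, all 19 had a negative log2 fold change, 6 fell and none rose, and the libraries of DKO and control IECs did not overlap for 16. The median log2 fold change was -1.75, against 0.00 over all genes tested. In bulk libraries, fewer cells of a type and less RNA per cell cannot be told apart, here and below. Itln1, a lectin that binds microbial sugars, was at 215, 326 and 244 CPM in DKO IECs against 1434, 902 and 957 CPM in controls. Every control library lay well above every DKO library, with the control mean 4.20 times the DKO mean (log2 fold change -2.07 ± 0.24 (SE), adjusted p = 0.0200). Mmp7, the protease that activates the alpha-defensins, was at 13.2, 18.4 and 10.4 CPM in DKO IECs against 82.7, 59.2 and 77.5 CPM in controls (log2 fold change -2.38 ± 0.24 (SE), adjusted p = 0.0166). Among the alpha-defensins themselves, Defa24 was at 233, 382 and 246 CPM in DKO IECs against 1439.8, 852 and 942 CPM in controls (log2 fold change -1.91 ± 0.28 (SE), adjusted p = 0.0361) and Defa30 at 125, 196 and 145 CPM in DKO IECs against 696, 455 and 406 CPM in controls (log2 fold change -1.74 ± 0.26 (SE), adjusted p = 0.0361). Defa26 (-3.35) and Defa17 (-1.56) also fell. The alpha-defensin genes are near-identical copies, and reads that match several of them can be assigned to the wrong copy or lost, so single copies are uncertain.

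Some well-known Paneth genes had wide replicate spread and did not pass. Lyz1, which encodes the lysozyme used to mark these cells, was at 332, 1177 and 353 CPM in DKO IECs against 2248, 1557 and 2273 CPM in controls (adjusted p = 0.182), and DKO replicate 2 lay near the lowest control. Ang4, an antimicrobial ribonuclease, was at 105, 74.7 and 104 CPM in DKO IECs against 709, 247 and 303 CPM in controls (adjusted p = 0.0868). Its libraries did not overlap, with VillinCreERT2 replicate 1 far above the other controls. Gm15292, an unnamed gene beside the defensins at chr8:21249754-21250556 (GRCm38), held 0.360, 0.856 and 0.344 CPM in DKO IECs against 22.2, 7.72 and 11.3 CPM in controls and fell with log2 fold change -4.71 ± 0.56 (SE), adjusted p = 0.0244. The count of called Paneth effectors moved with the libraries: 0 without DKO replicate 1, VillinCreERT2 replicate 1 or VillinCreERT2 replicate 3, where 12, 11 and 11 of 19 had an unadjusted p under 0.05, 1 without DKO replicate 3, 10 without DKO replicate 2 or VillinCreERT2 replicate 2, and 16 without both. With the level of macrophage and mesenchyme markers as a covariate, also chosen after seeing the data, it was 3.

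Goblet cell genes were mostly lower too. Of 18 tested, 15 were below 0 on the log2 scale (median -0.61), 5 fell and none rose. Fcgbp, a mucus-associated protein that cross-links with mucin, was at 2187, 2287 and 2142 CPM in DKO IECs against 6119, 8046 and 6650.4 CPM in controls (log2 fold change -1.65 ± 0.14 (SE), adjusted p = 0.0111). The DKO libraries lay within a narrow range, far below the controls. Muc2, the gel-forming mucin of the mucus layer, was at 409.6, 526 and 329 CPM in DKO IECs against 965, 857 and 812 CPM in controls (log2 fold change -1.06 ± 0.18 (SE), adjusted p = 0.0453). Spink4, a secreted peptide of goblet cells, was at 102, 77.1 and 130.4 CPM in DKO IECs against 244, 238 and 248 CPM in controls (log2 fold change -1.24 ± 0.18 (SE), adjusted p = 0.0361). Guca2a, the precursor of guanylin, and Bcas1 fell by 1.18 and 0.98 on the log2 scale. Other goblet genes had smaller differences: Clca1 was at 1623, 892 and 1534 CPM in DKO IECs against 2482, 2112 and 1648 CPM in controls (adjusted p = 0.245), Zg16 at 2433, 1069 and 1596 CPM in DKO IECs against 2064, 2627 and 2265 CPM in controls (adjusted p = 0.417), and Klk1 at 61.7 ± 13.2 CPM in DKO IECs and 60.6 ± 0.227 CPM in VillinCreERT2 IECs (adjusted p = 0.939). The count of called goblet genes was 0 without VillinCreERT2 replicate 1 or VillinCreERT2 replicate 3, where 10 and 12 of 18 had an unadjusted p under 0.05, 2 without DKO replicate 1 or DKO replicate 3, and 7 without VillinCreERT2 replicate 2. It was 1 with the marker covariate.

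Tuft cell genes were mostly lower, with few calls. Of 22 listed genes 18 were tested, 15 were below 0 on the log2 scale (median -0.99) and 2 fell. Dclk1, a microtubule-associated kinase that marks tuft cells, was at 8.08, 6.10 and 9.72 CPM in DKO IECs against 33.5, 31.1 and 27.5 CPM in controls (log2 fold change -1.95 ± 0.18 (SE), adjusted p = 0.0137). The libraries of the genotypes were far apart, with the control mean 3.85 times the DKO mean. Trpm5, the cation channel of taste signaling, was at 19.2, 12.7 and 19.4 CPM in DKO IECs against 53.2, 37.8 and 36.2 CPM in controls (log2 fold change -1.31 ± 0.22 (SE), adjusted p = 0.0453). Pou2f3, the transcription factor that tuft cells require, was at 1.70, 1.06 and 2.80 CPM in DKO IECs against 7.13, 5.65 and 5.03 CPM in controls (adjusted p = 0.0851), and Avil, an actin-binding protein of tuft cells, at 11.1, 5.54 and 11.7 CPM in DKO IECs against 29.7, 25.2 and 23.6 CPM in controls (adjusted p = 0.0626). Ptgs1, Alox5ap and Ltc4s, eicosanoid enzymes that leukocytes also express, had positive log2 fold changes of 0.99, 0.39 and 0.58, none of them called. The count of called tuft genes was 0 without VillinCreERT2 replicate 1 or VillinCreERT2 replicate 3, where 9 and 11 of 18 had an unadjusted p under 0.05, 1 without DKO replicate 1 or DKO replicate 3, 5 without DKO replicate 2 and 6 without VillinCreERT2 replicate 2. With the marker covariate it was 1, and Trpm5 was not called.

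Of 19 tested transcription factors of the secretory lineage, 13 had a negative log2 fold change and 2 fell. Foxa3, a forkhead factor of goblet cells, was at 8.49, 6.95 and 6.43 CPM in DKO IECs against 13.1, 12.8 and 13.2 CPM in controls (log2 fold change -0.84 ± 0.14 (SE), adjusted p = 0.0453). Bhlha15, also named Mist1, which shapes the secretory apparatus, was at 3.76, 5.04 and 4.32 CPM in DKO IECs against 10.8, 7.99 and 11.3 CPM in controls (log2 fold change -1.19 ± 0.20 (SE), adjusted p = 0.0440). Atoh1 itself was at 19.3, 18.9 and 15.4 CPM in DKO IECs against 28.4, 26.6 and 28.1 CPM in controls, with no overlap and an adjusted p of 0.0546, just above the threshold. Its fitted log2 fold change was -0.63 ± 0.12 (SE). Sox9, needed for Paneth cells, was at 11.2, 19.8 and 10.5 CPM in DKO IECs against 38.4, 27.6 and 39.3 CPM in controls (adjusted p = 0.0780), and Spdef, a goblet and Paneth factor, at 19.9, 13.1 and 13.5 CPM in DKO IECs against 24.2, 21.8 and 20.4 CPM in controls (adjusted p = 0.190). In the Notch pathway, whose lateral inhibition sets the share of secretory cells, 1 of 15 tested genes was called: Dll4, a ligand, at 7.92, 11.9 and 9.18 CPM in DKO IECs against 20.9, 20.2 and 24.3 CPM in controls (log2 fold change -1.17 ± 0.17 (SE), adjusted p = 0.0361). Dll1, the other main ligand, was at 30.1, 38.9 and 31.0 CPM in DKO IECs against 47.7, 40.8 and 46.4 CPM in controls (adjusted p = 0.147), and the Notch target Hes1 at 33.2, 39.3 and 28.6 CPM in DKO IECs against 29.7, 34.7 and 38.6 CPM in controls (adjusted p = 0.935), with the genotypes interleaved. Without VillinCreERT2 replicate 2, edgeR called 3 Notch genes higher and 1 lower. Leaving out DKO replicate 2 as well gave 2 higher and 2 lower. DESeq2 with all libraries called 1 higher and 1 lower.

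Enteroendocrine genes split in direction. Of 18 tested, 6 had a negative and 12 a positive log2 fold change, 1 fell and 1 rose. Ghrl, which encodes the appetite hormone ghrelin, was at 3.19, 1.31 and 1.28 CPM in DKO IECs against 12.3, 10.5 and 15.9 CPM in controls (log2 fold change -2.75 ± 0.39 (SE), adjusted p = 0.0361). Nts, which encodes neurotensin, was at 70.6, 53.7 and 40.3 CPM in DKO IECs against 24.1, 21.4 and 23.2 CPM in controls (log2 fold change 1.26 ± 0.20 (SE), adjusted p = 0.0417). Chga, the pan-endocrine granin, was at 73.7, 78.9 and 57.3 CPM in DKO IECs against 81.1, 70.2 and 94.6 CPM in controls (adjusted p = 0.451), and Gip, an incretin, at 77.1, 54.1 and 60.8 CPM in DKO IECs against 43.2, 46.0 and 56.9 CPM in controls (adjusted p = 0.247), in both cases with overlap.

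Crypt base stem cell genes were lower with a median of -0.72: 18 of 19 had a negative log2 fold change and 2 fell. Olfm4, a secreted glycoprotein of stem cells, was at 285, 398 and 247 CPM in DKO IECs against 688, 613 and 868 CPM in controls (log2 fold change -1.22 ± 0.21 (SE), adjusted p = 0.0466). Smoc2, a matricellular protein, was at 30.2, 30.3 and 24.8 CPM in DKO IECs against 47.4, 52.6 and 63.1 CPM in controls (log2 fold change -0.93 ± 0.14 (SE), adjusted p = 0.0361). Lgr5, the R-spondin receptor that defines these cells, was at 3.55, 4.74 and 2.26 CPM in DKO IECs against 11.6, 8.48 and 16.5 CPM in controls, with no overlap and an adjusted p of 0.0626. Ascl2, the stem cell transcription factor, was at 2.62, 4.13 and 3.04 CPM in DKO IECs against 5.27, 6.25 and 8.35 CPM in controls (adjusted p = 0.115), Myb at 23.3, 41.4 and 23.5 CPM in DKO IECs against 51.3, 53.2 and 65.4 CPM in controls (adjusted p = 0.123), Msi1 at 3.60, 6.20 and 3.83 CPM in DKO IECs against 7.30, 6.36 and 8.77 CPM in controls (adjusted p = 0.194), and Hopx at 26.9, 22.0 and 28.1 CPM in DKO IECs against 36.2, 37.5 and 35.9 CPM in controls (adjusted p = 0.0906). Among 13 tested Wnt ligand and feedback genes none was called by edgeR, 5 had an unadjusted p under 0.05, 4 were called by DESeq2 and none by limma-voom. By edgeR, 3 were called, all lower, without DKO replicate 2, 2 without VillinCreERT2 replicate 2, 5 without both and 4 with no filter on low counts. Wnt3, the Wnt that Paneth cells supply, was at 0.926, 2.42 and 1.42 CPM in DKO IECs against 4.22, 2.28 and 4.12 CPM in controls (adjusted p = 0.197), and DKO replicate 2 lay above the lowest control.

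All 24 proliferation genes tested lay below 0 on the log2 scale (median -0.53), and 1 was called. Birc5, the mitotic survival factor survivin, was at 14.7, 14.3 and 13.1 CPM in DKO IECs against 25.9, 25.9 and 27.7 CPM in controls (log2 fold change -0.92 ± 0.10 (SE), adjusted p = 0.0179). Ccnb2 had an adjusted p of 0.0453 but a log2 fold change of -0.55, short of the fold cutoff. Mki67, which cycling cells express, was at 36.5, 89.9 and 39.5 CPM in DKO IECs against 100.0, 87.3 and 116 CPM in controls (adjusted p = 0.259), with DKO replicate 2 at the level of the controls. Without DKO replicate 2, the male library, 12 of the 24 were called, and 10 of 19 crypt base stem cell genes. Without it and VillinCreERT2 replicate 2, the counts were 15 and 13. Without VillinCreERT2 replicate 2 alone they were 2 and 5. In both lists edgeR called none without DKO replicate 3, VillinCreERT2 replicate 1 or VillinCreERT2 replicate 3, where 7, 10 and 7 proliferation genes and 12, 11 and 11 stem cell genes had an unadjusted p under 0.05. Without DKO replicate 1 the counts were 1 and 0, with 9 and 11 at an unadjusted p under 0.05. With the marker covariate both were 0, with 5 and 10 at an unadjusted p under 0.05. With all libraries, DESeq2 called 5 and 9, and limma-voom 1 and 2.

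**Figure D2:**
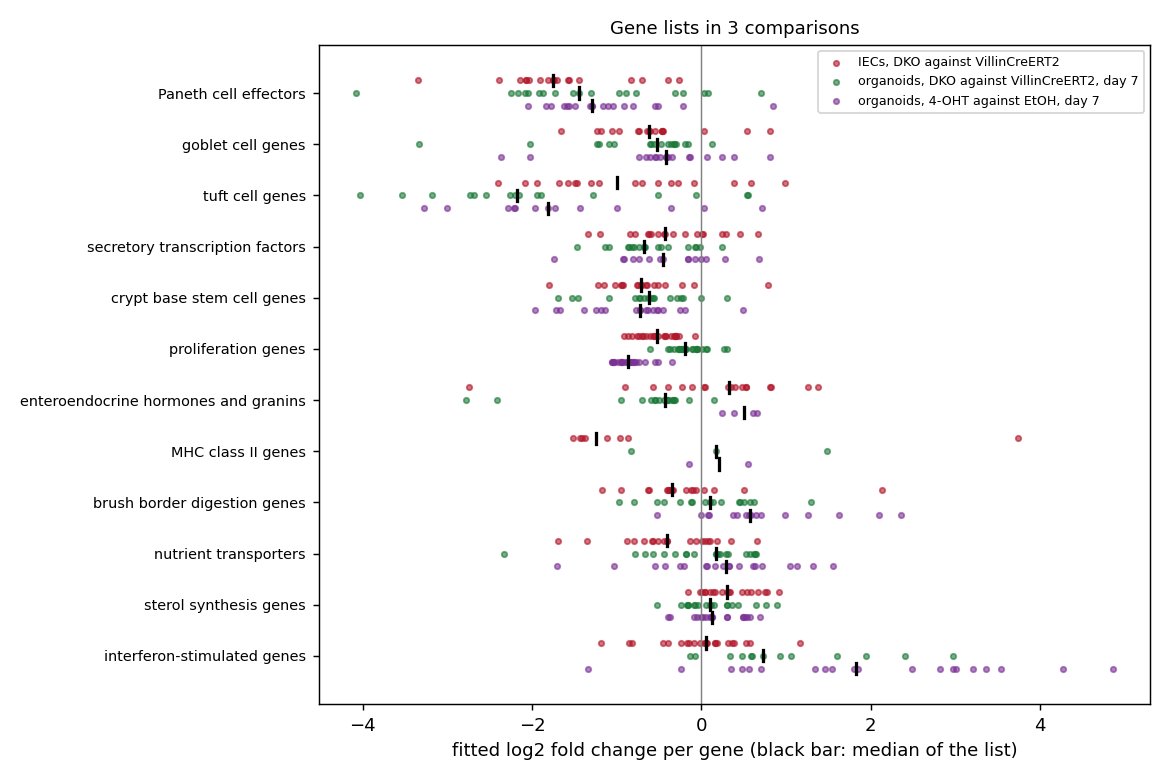
Fitted log2 fold change of each tested member (points) and the median (black bars) of 12 lists in IECs, in organoids of both genotypes at day 7 and in the 4-OHT time course at day 7. In IECs, Paneth, goblet, tuft, crypt base and proliferation genes lie mostly below 0, MHC class II genes lie below 0 except H2-DMb2, and sterol synthesis genes lie mostly above 0.

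Genes of absorptive cells changed singly, with few calls in each list. Cubn, the cubilin receptor that takes up vitamin B12 with intrinsic factor in the ileum, was at 53.6, 65.5 and 29.9 CPM in DKO IECs against 288, 273 and 282 CPM in controls (log2 fold change -2.50 ± 0.28 (SE), adjusted p = 0.0200). Slc23a1, a vitamin C transporter, was at 5.56, 12.8 and 5.25 CPM in DKO IECs against 52.3, 46.0 and 62.6 CPM in controls (log2 fold change -2.76 ± 0.38 (SE), adjusted p = 0.0361). Of 20 nutrient transporters, 2 fell: Slc34a2, the intestinal phosphate transporter, at 45.5, 89.3 and 50.6 CPM in DKO IECs against 183, 217 and 199.6 CPM in controls (log2 fold change -1.69 ± 0.26 (SE), adjusted p = 0.0417), and Slc15a1, the di- and tripeptide transporter, at 384, 473 and 459 CPM in DKO IECs against 821, 656 and 806 CPM in controls (log2 fold change -0.79 ± 0.14 (SE), adjusted p = 0.0453). The glucose transporter Slc5a1 was at 1499.5, 2339.9 and 2513 CPM in DKO IECs against 4115, 3669 and 3888 CPM in controls (adjusted p = 0.0938). Of 18 brush border digestion genes, 14 had a negative log2 fold change and 1, the metalloprotease gene Mep1b, fell (-0.62). Sis, sucrase-isomaltase, was at 1291, 2539 and 2643 CPM in DKO IECs against 4319, 4142 and 4021 CPM in controls (adjusted p = 0.134), and Alpi, the intestinal alkaline phosphatase that marks enterocytes, at 3285, 2923 and 4299.6 CPM in DKO IECs against 3884, 3237 and 3123 CPM in controls (adjusted p = 0.927), with overlap.

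Lipid and sterol handling moved in both directions. Abcg5 and Abcg8, the paired half-transporters that return plant sterols and cholesterol to the lumen, both fell: Abcg5 was at 178, 221 and 217 CPM in DKO IECs against 431, 433 and 429.8 CPM in controls (log2 fold change -1.07 ± 0.11 (SE), adjusted p = 0.0172), and Abcg8 at 203, 262 and 263 CPM in DKO IECs against 416, 384 and 396 CPM in controls (log2 fold change -0.72 ± 0.13 (SE), adjusted p = 0.0466). Cd36, a fatty acid translocase, rose, at 225, 171 and 213 CPM in DKO IECs against 58.4, 73.0 and 73.4 CPM in controls (log2 fold change 1.57 ± 0.15 (SE), adjusted p = 0.0136). Cyp4a10, a fatty acid omega-hydroxylase induced by PPAR alpha, was at 59.3, 27.8 and 37.3 CPM in DKO IECs against 10.4, 5.92 and 5.56 CPM in controls (log2 fold change 2.51 ± 0.37 (SE), adjusted p = 0.0417), the sole called gene of 18 for fatty acid oxidation and ketogenesis. Among 19 sterol synthesis genes 17 had a positive log2 fold change, and 1 was called: Mvd, mevalonate decarboxylase, at 30.5, 29.8 and 34.8 CPM in DKO IECs against 21.3, 21.0 and 17.7 CPM in controls (log2 fold change 0.66 ± 0.12 (SE), adjusted p = 0.0466). Its adjusted p lay near the threshold, and no sterol synthesis gene was called by limma-voom, with DESeq2 size factors in edgeR, or with X and Y genes left out before the fit, where 7 each had an unadjusted p under 0.05, whereas DESeq2 called 5. Apoa4, a chylomicron apolipoprotein also listed among villus tip genes, was at 8952, 5434 and 8651 CPM in DKO IECs against 4487, 3839 and 4064 CPM in controls (adjusted p = 0.0954). In the lists of region, 2 of 10 proximal genes fell (Gstm3, -1.49, and Cyp2b10, -0.84) and 1 of 10 distal genes (Cubn).

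The other large rises came from genes of varied function. Fmo1, a flavin monooxygenase of drug metabolism, was at 52.9, 63.8 and 66.2 CPM in DKO IECs against 13.4, 12.2 and 10.9 CPM in controls (log2 fold change 2.33 ± 0.13 (SE), adjusted p = 0.00602), the lowest adjusted p among these genes. Wdfy1, an endosomal adaptor protein, was at 47.0, 59.7 and 59.5 CPM in DKO IECs against 12.7, 10.1 and 12.8 CPM in controls (log2 fold change 2.22 ± 0.15 (SE), adjusted p = 0.00904). Both were tightly grouped within each genotype, and the DKO mean was 5.02 times the control mean for Fmo1 and 4.67 times for Wdfy1. Plscr4, a phospholipid scramblase, was at 7.56, 7.05 and 7.66 CPM in DKO IECs against 0.823, 1.14 and 0.428 CPM in controls (log2 fold change 3.21 ± 0.34 (SE), adjusted p = 0.0179). Plcd3, a phospholipase C, was at 3.29, 6.40 and 2.85 CPM in DKO IECs against 0.384, 0.652 and 0.535 CPM in controls (log2 fold change 2.98 ± 0.42 (SE), adjusted p = 0.0338), and Paqr9, a membrane progestin receptor family member, at 14.5, 10.9 and 22.7 CPM in DKO IECs against 2.91, 3.37 and 1.87 CPM in controls (log2 fold change 2.56 ± 0.34 (SE), adjusted p = 0.0288). Hsd3b2, a hydroxysteroid dehydrogenase, was at 3.50, 2.12 and 2.65 CPM in DKO IECs against 0.549, 0.435 and 0.588 CPM in controls (log2 fold change 2.38 ± 0.32 (SE), adjusted p = 0.0301), and Gng11, a G protein gamma subunit, at 17.0, 8.26 and 16.5 CPM in DKO IECs against 2.47, 2.88 and 3.85 CPM in controls (log2 fold change 2.18 ± 0.32 (SE), adjusted p = 0.0361). Acta1, skeletal muscle actin, rose by 2.01 and Gsta2, a glutathione transferase, by 1.93 on the log2 scale. The unnamed gene 5033403H07Rik was at 7.87, 4.48 and 6.38 CPM in DKO IECs against 0.439, 0.544 and 0.481 CPM in controls (log2 fold change 3.66 ± 0.30 (SE), adjusted p = 0.0106).

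Rasd1, a small GTPase induced by glucocorticoids, was at 0.977, 0.806 and 1.03 CPM in DKO IECs against 6.31, 3.75 and 6.63 CPM in controls (log2 fold change -2.56 ± 0.30 (SE), adjusted p = 0.0200), and Strip2, a subunit of STRIPAK phosphatase complexes, at 3.14, 2.07 and 4.81 CPM in DKO IECs against 15.8, 13.3 and 11.1 CPM in controls (log2 fold change -2.00 ± 0.31 (SE), adjusted p = 0.0407). Dbp, a clock-controlled PAR bZIP transcription factor, was at 4.73, 5.54 and 4.76 CPM in DKO IECs against 26.9, 26.1 and 40.6 CPM in controls (log2 fold change -2.64 ± 0.20 (SE), adjusted p = 0.0106). Its relative Tef, named here after its values were seen, was at 31.6, 40.2 and 41.1 CPM in DKO IECs against 62.7, 65.8 and 80.8 CPM in controls (log2 fold change -0.89 ± 0.15 (SE), adjusted p = 0.0427). Other clock genes, also chosen after their values were seen, were Nr1d1 at 101, 141 and 135 CPM in DKO IECs against 243, 197 and 232 CPM in controls (adjusted p = 0.0562), Per3 at 3.60, 5.69 and 3.88 CPM in DKO IECs against 9.60, 8.04 and 11.98 CPM in controls (adjusted p = 0.0730) and Arntl, which peaks opposite to them, at 35.9, 30.6 and 36.7 CPM in DKO IECs against 29.2, 22.1 and 20.4 CPM in controls (adjusted p = 0.147). Of these clock genes, Dbp and Tef alone were called.

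**Figure D3:**
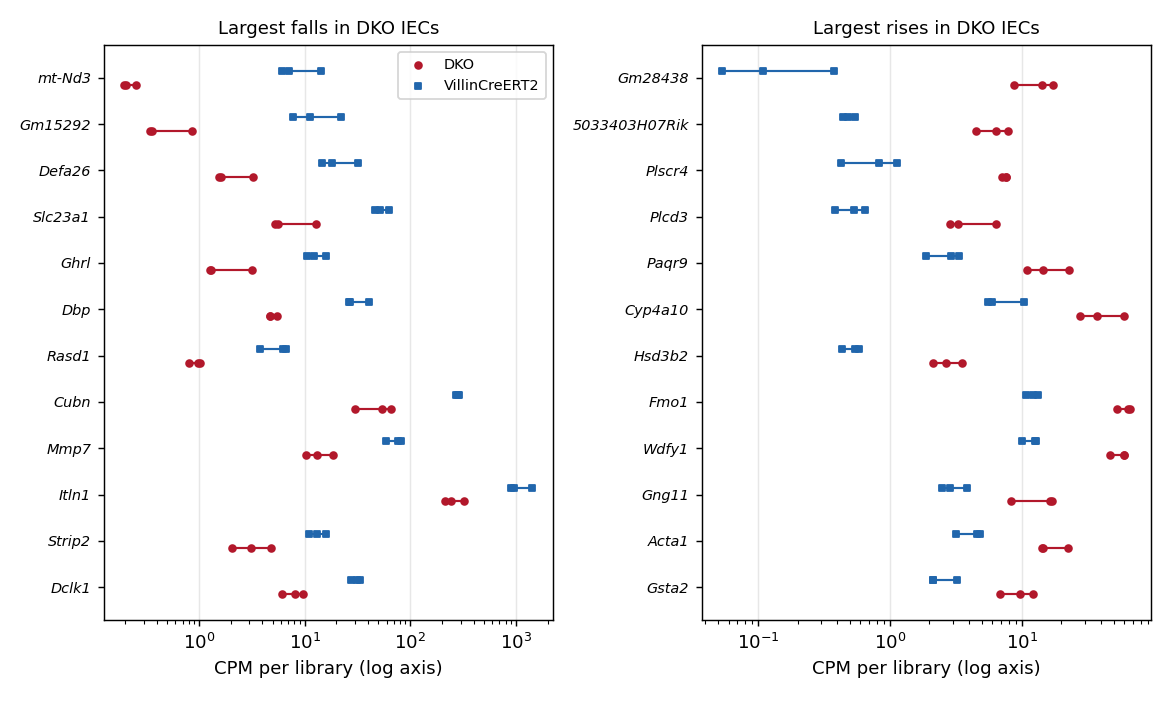
CPM per library (log axis) of the 12 largest falls and the 12 largest rises among called genes expressed in organoids, with DKO as circles and VillinCreERT2 as squares and a line from the lowest to the highest library of each genotype. The genotypes do not overlap, as the choice of genes required.

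MHC class II genes, which present peptides to CD4 T cells and which enterocytes express as well as antigen-presenting cells, were lower. Of 8 tested, 3 fell and none rose, 7 had a negative log2 fold change, and the median was -1.25. H2-Ab1, the beta chain of I-A, was at 265, 216 and 309 CPM in DKO IECs against 538, 809.8 and 922 CPM in controls (log2 fold change -1.52 ± 0.23 (SE), adjusted p = 0.0361). H2-DMb1, a chain of the peptide exchanger H2-DM, was at 36.2, 32.8 and 39.2 CPM in DKO IECs against 70.6, 103 and 107 CPM in controls (log2 fold change -1.38 ± 0.17 (SE), adjusted p = 0.0242). Ciita, the coactivator that all class II promoters need, was at 16.4, 18.0 and 13.7 CPM in DKO IECs against 29.1, 44.8 and 56.0 CPM in controls (log2 fold change -1.43 ± 0.24 (SE), adjusted p = 0.0466). Ciita was called in 6 of 17 alternative settings, against 13 of 17 for H2-DMb1 and 12 of 18 for H2-Ab1. By limma-voom and with upper quartile scaling, Ciita was not called. H2-Eb1, H2-Aa and the invariant chain Cd74 had log2 fold changes of -1.41, -1.11 and -0.96 with adjusted p of 0.115, 0.207 and 0.0959. Macrophage and dendritic cell markers, whose cells also express class II genes, summed to 1246, 465 and 408 CPM in DKO IECs against 19.0, 594 and 54.8 CPM in controls, so DKO replicates 2 and 3 lay below VillinCreERT2 replicate 2 and above the other controls. With the marker level of macrophages and mesenchyme as a covariate, an alternative chosen after seeing the data, 1 class II gene was called, lower in DKO IECs, and 7 of 8 had an unadjusted p under 0.05. H2-DMb2, a near copy of H2-DMb1, was the exception, at 26.9, 1.41 and 1.62 CPM in DKO IECs against 0.329, 1.58 and 0.321 CPM in controls (adjusted p = 0.261), with DKO replicate 1 far above every other library. Tap1, the peptide transporter of class I, encoded in the same region and named after its values were seen, was at 60.4, 67.7 and 70.5 CPM in DKO IECs against 133, 138 and 149 CPM in controls (log2 fold change -1.08 ± 0.10 (SE), adjusted p = 0.0136). Of the 8 genes, 2 were expressed in organoids, H2-Ab1 and H2-DMa. The other class II genes, Ciita, H2-DMb1, H2-DMb2, H2-Eb1, H2-Aa and Cd74, belong to the genes under 1 CPM in every organoid library. The count of called class II genes was 0 without DKO replicate 1, DKO replicate 3 or VillinCreERT2 replicate 3, where 7, 7 and 6 of 8 had an unadjusted p under 0.05, and 1 without VillinCreERT2 replicate 1.

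Class II promoters share an inverted CCAAT box near the start site, the Y box. The 250 bases before the start of 3 class II genes are shown 5′ to 3′ on the gene's strand, from RefSeq on GRCm38.p6, with each CCAAT or its reverse complement ATTGG in capitals.
H2-DMb1, chr17:34152941-34153190, plus strand: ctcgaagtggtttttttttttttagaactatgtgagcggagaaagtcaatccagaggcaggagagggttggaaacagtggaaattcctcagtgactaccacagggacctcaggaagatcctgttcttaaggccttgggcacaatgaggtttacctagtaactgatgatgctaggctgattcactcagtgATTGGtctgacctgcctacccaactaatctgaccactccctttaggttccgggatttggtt
H2-Aa, chr17:34287824-34288073, minus strand: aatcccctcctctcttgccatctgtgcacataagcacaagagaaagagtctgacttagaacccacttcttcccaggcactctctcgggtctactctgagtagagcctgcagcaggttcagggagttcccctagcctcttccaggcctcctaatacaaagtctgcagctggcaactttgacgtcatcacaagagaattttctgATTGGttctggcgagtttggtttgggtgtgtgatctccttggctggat
H2-Eb1, chr17:34305617-34305866, plus strand: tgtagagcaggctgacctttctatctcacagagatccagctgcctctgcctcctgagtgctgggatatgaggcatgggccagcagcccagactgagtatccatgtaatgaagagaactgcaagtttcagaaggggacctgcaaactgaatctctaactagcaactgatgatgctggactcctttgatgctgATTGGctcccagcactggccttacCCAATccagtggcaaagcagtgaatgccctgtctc
The pentamer began 61 bases before the start in H2-DMb1, 48 in H2-Aa, and 59 and 35 in H2-Eb1. On both strands it occurred in 33.9% of the 32841 promoter windows of the same length, so its presence alone does not set these genes apart, and a match is not evidence of binding.

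**Figure D4:**
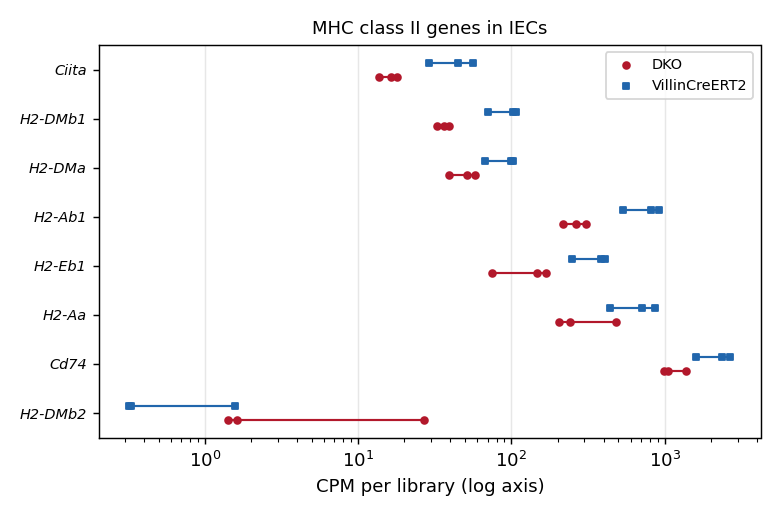
CPM per library (log axis) of 8 MHC class II genes in IECs, with DKO as circles, VillinCreERT2 as squares and a line from the lowest to the highest library. The genotypes do not overlap for 6 of the genes, H2-Aa and H2-DMb2 being the exceptions, and H2-DMb2 is high in 1 DKO library alone.

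Of 23 interferon-stimulated genes none was called by edgeR or limma-voom and 2 were called by DESeq2, with 3 at an unadjusted p under 0.05 and a median of 0.05. Likewise, edgeR called none of 15 antimicrobial lectins and defence genes, 16 immediate early genes, 15 ER stress genes, 25 SWI/SNF subunits, 6 Mediator kinase module genes or 10 villus tip genes. In the same order 6, 4, 3, 3, 1 and 4 had an unadjusted p under 0.05, DESeq2 called 3, 1, 0, 0, 0 and 3, and limma-voom called none. Without DKO replicate 2, edgeR called 5 of the antimicrobial genes, 1 higher and 4 lower in DKO IECs, and 1 villus tip gene. Without VillinCreERT2 replicate 2 it called 1 antimicrobial, 1 immediate early and 1 interferon-stimulated gene, and without both of these libraries 6 antimicrobial genes, 1 villus tip gene and 1 SWI/SNF subunit. Reg3b, a bactericidal lectin, was at 115, 1295 and 147 CPM in DKO IECs against 2962, 5787 and 7922 CPM in controls (adjusted p = 0.197). Its means differed widely, yet so did libraries of the same genotype. Of 11 epithelial identity genes edgeR and limma-voom called none and DESeq2 called 1, with 5 at an unadjusted p under 0.05. In the lists of secretory transcription factors, enteroendocrine, Notch, brush border, transporter, lipid, fatty acid oxidation, sterol, proximal and distal genes, no member was called by edgeR without VillinCreERT2 replicate 1 or without VillinCreERT2 replicate 3, where 2 to 8 members of each had an unadjusted p under 0.05. The same held without DKO replicate 1 and without DKO replicate 3 for 7 of these lists, the exceptions being the enteroendocrine, lipid and distal genes, with 3 to 10 members at an unadjusted p under 0.05. With the marker level of non-epithelial cells as a covariate, no member was called in any of them except 1 distal gene, and 1 to 9 members of the other lists had an unadjusted p under 0.05.

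Of the 42 called genes under 1 CPM in every organoid library, 19 of the 37 that rose were immunoglobulin variable genes, which B cells rearrange and plasma cells express, and 2 were T cell receptor constant genes. Igkv8-21 was at 3.45, 2.02 and 4.71 CPM in DKO IECs against 0, 0.0544 and 0.107 CPM in controls, and Igkv4-91 at 5.61, 6.85 and 1.42 CPM in DKO IECs against 0.110, 0.109 and 0 CPM in controls. Over the 3 libraries of each genotype Igkv8-21 had 203 counts against 3, a ratio of 67.8 (95% exact interval 22.9 to 332, counting error only). Igkv4-91 had 274 against 4, a ratio of 68.7 (26.5 to 254). Igkv4-53, Igkv10-94 and Ighv5-4 rose with fitted log2 fold changes of 5.01, 4.64 and 4.49. All 89 tested immunoglobulin variable genes had a positive log2 fold change, with a median of 3.06. Among constant genes, Igkc of the kappa light chain and Igha of the IgA heavy chain did not pass: Igkc was at 527, 299 and 357 CPM in DKO IECs against 10.1, 117 and 12.1 CPM in controls (adjusted p = 0.215) and Igha at 744, 588 and 607 CPM in DKO IECs against 18.1, 208 and 13.1 CPM in controls (adjusted p = 0.244), with VillinCreERT2 replicate 2 far above the other controls. Variable gene segments resemble each other, and each mouse uses its own set. Without VillinCreERT2 replicate 2, 903 genes of this class were called, 884 of them higher. In this class edgeR called 0 without VillinCreERT2 replicate 3, 1 without VillinCreERT2 replicate 1, 5 without DKO replicate 3 and 7 without DKO replicate 1. Without VillinCreERT2 replicate 3, 1648 of all tested genes, X and Y included, had an unadjusted p under 0.05.

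All 18 markers of T cells and intraepithelial lymphocytes tested had a positive log2 fold change, 15 had an unadjusted p under 0.05 and 1 was called: Trdc, the constant region of the T cell receptor delta chain carried by many intraepithelial lymphocytes, at 28.9, 25.3 and 21.1 CPM in DKO IECs against 8.67, 9.02 and 8.61 CPM in controls (log2 fold change 1.52 ± 0.14 (SE), adjusted p = 0.0136). Tcrg-C1, a gamma chain constant gene, was at 22.0, 19.4 and 20.4 CPM in DKO IECs against 8.18, 11.6 and 6.47 CPM in controls (log2 fold change 1.23 ± 0.21 (SE), adjusted p = 0.0465), and Tnfrsf9, a costimulatory receptor of activated T cells, at 7.51, 5.14 and 3.24 CPM in DKO IECs against 1.10, 1.30 and 0.909 CPM in controls (log2 fold change 2.26 ± 0.36 (SE), adjusted p = 0.0417), both named after their values were seen. Cd8a was at 78.6, 82.6 and 47.0 CPM in DKO IECs against 21.1, 40.6 and 21.7 CPM in controls (adjusted p = 0.124) and Gzmb, a cytotoxic granule protease, at 205, 158 and 84.6 CPM in DKO IECs against 36.4, 84.0 and 40.9 CPM in controls (adjusted p = 0.171). Without VillinCreERT2 replicate 2, 17 of the 18 were called, and with VillinCreERT2 replicate 1 or VillinCreERT2 replicate 3 left out none was, 10 and 8 having an unadjusted p under 0.05. By DESeq2 13 were called, with all libraries. Rdh16, a retinol dehydrogenase also under 1 CPM in organoids and named after its values were seen, was at 28.2, 30.7 and 37.4 CPM in DKO IECs against 12.8, 11.8 and 12.3 CPM in controls (log2 fold change 1.39 ± 0.13 (SE), adjusted p = 0.0136). Among falls of this class, the pseudogene Gm9113 was at 0, 0.101 and 0.0982 CPM in DKO IECs against 3.29, 1.85 and 4.76 CPM in controls, with 4 counts against 183 over the libraries of each genotype, a ratio of 0.0219 (95% exact interval 0.00591 to 0.0571).

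Among the genes expressed in organoids that were named for their size of change, the deepest fall and the largest rise belonged to a mitochondrial gene and a nuclear copy of mitochondrial sequence. mt-Nd3, a subunit of respiratory complex I encoded on the mitochondrial genome (chrM:9459-9806), was at 0.206, 0.252 and 0.196 CPM in DKO IECs against 7.19, 14.2 and 6.10 CPM in controls (log2 fold change -5.35 ± 0.44 (SE), adjusted p = 0.0106). Gm28438, a pseudogene on chromosome 1 (chr1:24612775-24613119), moved the other way, at 14.2, 17.4 and 8.79 CPM in DKO IECs against 0.110, 0.380 and 0.0535 CPM in controls (log2 fold change 6.17 ± 0.57 (SE), adjusted p = 0.0149). None of the other 10 tested protein-coding genes of the mitochondrial genome was called by edgeR, DESeq2 or limma-voom or had an unadjusted p under 0.05. Of all 26 tested genes of that genome, RNA genes included, 2 were called, mt-Nd3 and the tRNA gene mt-Tg, which was listed at 0 in every DKO library and at 0.658, 1.14 and 0.588 CPM in controls (adjusted p = 0.0466). mt-Nd1 was at 11358, 13296 and 5844 CPM in DKO IECs against 10616, 10393 and 9077 CPM in controls (adjusted p = 0.977). In organoids, mt-Nd3 averaged 12.2 ± 2.07 CPM (SD, n = 3) in the DKO line and 3.03 ± 0.755 CPM in the VillinCreERT2 line, a difference in the other direction, and 1.62 ± 0.137 CPM in the C57BL/6 line. Gm28438 averaged 6.82 ± 0.970 CPM in the DKO line, 0.259 ± 0.101 CPM in the VillinCreERT2 line and 27.2 ± 3.91 CPM in the C57BL/6 line. Within 1 line, 4-OHT against EtOH gave log2 fold changes of 0.15 and -0.29 on day 7, neither called. In IECs mt-Nd3 was not called without DKO replicate 3 or by limma-voom with sample quality weights. Gm28438 was not called without VillinCreERT2 replicate 1 or VillinCreERT2 replicate 3. Reads from near-identical copies can be counted for either gene, and strandedness of the counting is not given in the sources used here.

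To ask how much of the IEC response recurred in cultured epithelium, its genes were followed in 2 organoid comparisons that share no library with the IECs or with each other. Organoids are cultures grown from intestinal crypts. Stromal RNA was not wholly absent from them, since Col1a1 averaged 9.11 ± 14.9 CPM (SD, n = 3) in the EtOH libraries of day 7. The first set CDK8iIEC-KO/Cdk19-/- organoids against VillinCreERT2 organoids 7 days after 100 nM 4-OHT, the active form of tamoxifen. It called 11.5% of 14652 genes higher and 7.96% lower. The second set 4-OHT against the EtOH vehicle at day 7 in the line VillinCreERT2/Cdk8 fl/fl/Cdk19-/-, where both arms are Cdk19-/-. It called 9.08% of 14983 genes higher and 9.29% lower. Each organoid group is 3 libraries of 1 line.

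Of the 123 IEC falls expressed in organoids, 90 were also negative in DKO against VillinCreERT2 organoids, with 41 called lower and 5 called higher. All 58 rises were tested there, 42 were positive, 31 were called higher and 3 lower. The called share thus exceeded the background in both directions. Against EtOH, 41 of 121 tested falls were called lower and 14 higher, and 26 of 51 tested rises were called higher and none lower. Since 9.08% of all genes were called higher against EtOH, opposite calls among the falls were no rarer than over all genes. Over all genes expressed in organoids, 60.1% and 57.8% had the sign of the IEC difference, against 72.9% and 69.2% of the called genes. Genes are not independent, and no test was made over them.

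Of the 181 called IEC genes expressed in organoids, 25 fell and 17 rose in all 3 comparisons. The share of all genes called alike in both organoid comparisons was not computed, so these counts have no background beside them. The falls included Itln1, Mmp7, Defa24, Defa26, Defa30, Guca2a, Rep15, Foxa3, Bhlha15, Trpm5, Olfm4, Dll4, Fgfr3 and Cubn. Itln1 had log2 fold changes of -2.07 in IECs, -1.92 in DKO organoids and -1.57 after 4-OHT, Bhlha15 of -1.19, -1.47 and -1.74, and Dll4 of -1.17, -1.08 and -1.16. The rises included Fmo1 (2.33, 2.75 and 1.65), Cd36 (1.57, 3.01 and 2.41), Npl, a sialic acid lyase (1.65, 2.31 and 3.36), and Dhrs9, a retinol dehydrogenase (1.46, 1.10 and 1.81). Wdfy1 rose by 2.22 and 2.33 where genotypes were compared and had a log2 fold change of 0.42 within the line, short of the fold cutoff. Rep15, Fgfr3, Npl and Dhrs9, which lie outside the named sets, were chosen after their values were seen.

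Paneth effectors had a median of -1.75 in IECs, -1.44 in DKO organoids and -1.29 after 4-OHT, with 6, 14 and 15 members called lower and 0, 1 and 1 called higher, the last being Pnliprp2, a lipase (-0.39, 0.70 and 0.84), named after its values were seen. Tuft genes had medians of -0.99, -2.18 and -1.81, and crypt base stem cell genes of -0.72, -0.61 and -0.73. Interferon-stimulated genes had medians of 0.05, 0.73 and 1.83, with none called in IECs by edgeR against 9 of 13 and 14 called higher in organoids. Oasl2, an interferon-induced gene, had log2 fold changes of 0.16 in IECs and 2.97 in DKO organoids. Brush border genes had medians of -0.34, 0.10 and 0.57.

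The difference between the IEC and the organoid response was itself tested in a joint fit of 12 libraries, as DKO against VillinCreERT2 in each. It was called for 1450 of 15802 genes (9.18%), 688 higher in IECs than in organoids (4.35%) and 762 lower (4.82%). Of the 181 called IEC genes expressed in organoids, 99 differed. Of these, 63 fell and 26 rose in IECs with a smaller change or one of the opposite sign in organoids, and 10, Dclk1, Cubn, Guca2a and Cd36 among them, changed in the same direction and further in organoids. Since these genes were chosen for their IEC change, the excess over the background is not independent evidence. Mmp7 fell further in IECs (difference -1.58, adjusted p = 0.00318), as did Fcgbp (-1.14, adjusted p = 0.00153). Abcg5 fell in IECs and was at -0.03 in organoids (difference -1.01, adjusted p = 0.00113). Dbp went in opposite directions, with -2.64 in IECs and 1.39 in organoids (difference -3.999, adjusted p = 2.18e-05). Dclk1 (1.27, adjusted p = 0.0165) and Cubn (1.89, adjusted p = 0.0484) fell less in IECs than in organoids. For Itln1 the difference was -0.12 ± 0.24 (SE) and for Atoh1 0.20 ± 0.15 (SE), neither called.

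**Figure D5:**
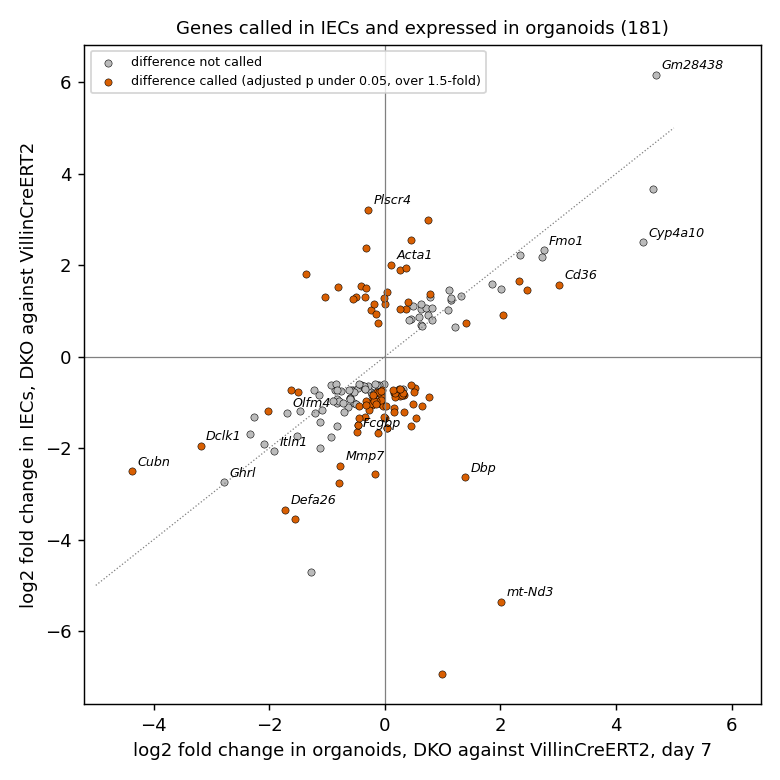
Log2 fold change in IECs (y) against that in organoids at day 7 (x), both DKO against VillinCreERT2, for the 181 called IEC genes expressed in organoids, with the 99 genes whose difference was called in orange and the dotted line marking equal change. Most points lie in the lower left and upper right, with Dbp and mt-Nd3 lower in IECs and higher in organoids.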

How the data were processed

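RNA sequencing of the small intestine epithelium was deposited by the authors as counts per gene, 1 table for IECs and others for organoids, with STAR 2.5.2, featureCounts, Subread 1.6.3 and build mm10 named in the submitters' processing notes. The strand setting is not given in the sources used here. Symbols and positions came from GENCODE vM21, which held 53861 of 54752 identifiers. In R 4.3.3, edgeR 4.0.16 quasi-likelihood tests were fitted with expression filtering and TMM scaling, adjusted by Benjamini-Hochberg over all tested genes. SE is the fold change divided by the square root of F, and CPM used TMM-scaled totals. DESeq2 1.42.0 and limma 3.58.1 (voom) were alternatives, with other filters, scalings, a replicate block and each library left out.

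Members, gene lists and tests were chosen with earlier results of these data known. The text names the 12 largest rises and falls (5 in the other class) among called genes without overlap and with a mean of 50 or more counts in the group where they are higher, the called members and 3 most abundant members of each list, and genes the study discusses. Genes chosen after their values were seen are marked. A further 18 per-sample columns of a table of other mutants were not used. The scripts were tested on simulated data.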

Additional observations from a re-analysis of the deposited data

Results flagged for a closer look

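For 44 of 160 named genes tested, the difference between DKO and VillinCreERT2 differed between IECs and organoids in the joint edgeR fit (adjusted p under 0.05 and a difference over 1.5-fold), the test that singles them out here. Each difference is the log2 fold change in IECs minus that in organoids. The share is read against 9.18% over all genes, and genes chosen for a change in IECs are favoured by that choice.

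Called in both and in opposite directions were mt-Nd3 (-7.34, from -5.35 in IECs and 2.01 in organoids) and Dbp (-3.999, from -2.64 in IECs and 1.39 in organoids). Called in both in the same direction but by different amounts were Slc23a1 (-1.95, from -2.76 in IECs and -0.79 in organoids), Defa26 (-1.59, from -3.35 in IECs and -1.73 in organoids), Mmp7 (-1.58, from -2.38 in IECs and -0.77 in organoids), Cd36 (-1.41, from 1.57 in IECs and 3.01 in organoids), Guca2a (0.87, from -1.18 in IECs and -2.02 in organoids), Dclk1 (1.27, from -1.95 in IECs and -3.19 in organoids), Cubn (1.89, from -2.50 in IECs and -4.37 in organoids) and Plcd3 (2.27, from 2.98 in IECs and 0.74 in organoids).

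Called in IECs and not in organoids, the falls were Rasd1 (-2.36, from -2.56 in IECs and -0.17 in organoids), Defa17 (-1.56, from -1.56 in IECs and 0.03 in organoids), Fcgbp (-1.14, from -1.65 in IECs and -0.48 in organoids), Cyp2b10 (-1.14, from -0.84 in IECs and 0.33 in organoids), Slc15a1 (-1.08, from -0.79 in IECs and 0.31 in organoids), Mep1b (-1.05, from -0.62 in IECs and 0.46 in organoids), Abcg5 (-1.01, from -1.07 in IECs and -0.03 in organoids), Gstm3 (-0.99, from -1.49 in IECs and -0.47 in organoids), Abcg8 (-0.94, from -0.72 in IECs and 0.26 in organoids), Bcas1 (-0.79, from -0.98 in IECs and -0.15 in organoids), Muc2 (-0.70, from -1.06 in IECs and -0.33 in organoids) and Birc5 (-0.69, from -0.92 in IECs and -0.20 in organoids). The rises were Gsta2 (1.602, from 1.93 in IECs and 0.36 in organoids), Nts (1.84, from 1.26 in IECs and -0.55 in organoids), Acta1 (1.93, from 2.01 in IECs and 0.11 in organoids), Paqr9 (2.14, from 2.56 in IECs and 0.45 in organoids), Hsd3b2 (2.73, from 2.38 in IECs and -0.32 in organoids) and Plscr4 (3.52, from 3.21 in IECs and -0.28 in organoids).

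Called in organoids and not in IECs were Oasl2 (-2.78, from 0.16 in IECs and 2.97 in organoids), Pigr (-1.24, from -0.49 in IECs and 0.77 in organoids), Muc3 (-1.14, from -0.27 in IECs and 0.91 in organoids), Rbp2 (-0.80, from 0.23 in IECs and 1.06 in organoids), Hes1 (-0.60, from -0.03 in IECs and 0.60 in organoids), Dtx4 (0.59, from -0.18 in IECs and -0.73 in organoids), Slc6a19 (0.77, from 0.07 in IECs and -0.67 in organoids), Creb3l1 (0.78, from -0.33 in IECs and -1.09 in organoids), Ada (1.65, from -0.11 in IECs and -1.73 in organoids) and Pnlip (5.49, from 4.17 in IECs and -1.30 in organoids). Called in neither, with only the difference passing, were Anpep (-0.89, from -0.35 in IECs and 0.57 in organoids), Lct (-0.86, from -0.39 in IECs and 0.50 in organoids), Lgr4 (-0.70, from -0.92 in IECs and -0.19 in organoids), Cpt1a (-0.63, from -0.22 in IECs and 0.44 in organoids), Gip (0.73, from 0.39 in IECs and -0.31 in organoids) and Cela1 (1.09, from 1.46 in IECs and 0.39 in organoids). Pnlip and Cela1 are pancreatic enzyme genes, whose markers summed higher in the DKO IEC libraries. Their part in these 2 differences was not tested.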

How the results depend on the processing

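The 181 calls among genes expressed in organoids became 660 with no filter on low counts, 587 by DESeq2, 429 by limma-voom with sample quality weights and 289 when only organoid-expressed genes entered the fit, and the 42 calls among the other genes became 418, 257 and 157 under the first 3. With at least 10 counts in every library, fewer genes were tested and the second count was 22. Added after seeing the data, leaving out replicate 2 of both genotypes gave 748 and 514, and a covariate for macrophage and mesenchyme marker level gave 19 and 3. Leaving out 1 library moved the counts between 3 (without VillinCreERT2 replicate 3) and 618 (without VillinCreERT2 replicate 2) and between 0 and 903 (the same libraries), and that of the difference between responses between 1036 (without VillinCreERT2 replicate 3) and 1955 (without DKO replicate 2), against 1450. DESeq2 called all 223 genes again, limma-voom 202 and upper quartile scaling 171. All other settings but the replicate block, given next, kept these counts, and those of both organoid comparisons, within 1.5 times.

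With the replicate number as a block, 8 and 0 genes were called in IECs, 7 of them among the 223, and 867 for the difference between responses. In the IEC fit 2281 of all tested genes, X and Y included, had an unadjusted p under 0.05. Deviations of same-numbered IEC libraries correlated at -0.41, -0.16 and 0.21, so the numbers are not taken to pair the libraries.

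For single named genes, 2369 gene and setting pairs kept direction and call, 334 lost the call, 128 gained it and 0 changed direction. What moved these counts was not tested. Precision is limited by 3 libraries a group, each with 18171558 or more counts.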

Other observations

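Within 10 Mb of Cdk8, 4 of 191 tested genes were called (Cyp3a25, Cyp3a13, Bhlha15 and 4933404O12Rik), and within 10 Mb of Cdk19, 2 of 73 (Cd24a and Gm8834), against 1.52% of all tested genes. Mitochondrial genes took 5.06% to 11.1% of counts in DKO and 6.86% to 7.92% in VillinCreERT2 libraries.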
